A study of Mus musculus with 12 samples.

Results

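Igf2, H19, Igf2r, Plagl1 and Grb10 are imprinted genes that act on growth, and their messenger RNA was read in mouse embryonic stem (ES) cells that lack Polycomb proteins. The genes were followed through every probe set whose platform gene symbol names one of them. This gave 12 of the 45037 probe sets on the array: 2 for Igf2, 1 for H19, 3 for Igf2r, 3 for Plagl1 and 3 for Grb10. A filter on dim probe sets kept 10 of the 12. The study hybridised RNA from 4 genotypes to Affymetrix Mouse 430_2.0 arrays, with 3 biological replicates each and 12 arrays in all. The genotypes were wild type, a Ring1B deficient mutant, an Eed deficient mutant, and a Ring1B/Eed double deficient line. All mutants were made by gene targeting, and the double deficient line was derived from the Eed deficient cells. They are called the Ring1B mutant, the Eed mutant and the double mutant below (labelled deficient in the plots). Nothing in the labels points to more than 1 line per genotype, so a p-value here measures the spread between arrays of a genotype, and each comparison also holds any difference between lines. Changes against wild type share the same 3 wild type arrays.

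Ring1B, the product of Rnf2, is the ubiquitin ligase of PRC1, and Eed is required by PRC2, the complex that methylates histone H3; both belong to the Polycomb repressors. Imprinted genes are expressed mainly from the maternal or the paternal copy, and arrays that measure total messenger RNA do not tell the copies apart. Igf2 encodes a secreted growth factor expressed from the paternal copy. H19 is a long noncoding RNA expressed from the maternal copy, and both genes share enhancers. Igf2r encodes a receptor that carries IGF2 to lysosomes for breakdown. Plagl1 encodes a zinc finger transcription factor, and Grb10 encodes an adaptor that dampens signalling from the insulin and IGF1 receptors.

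In the RefSeq annotation of build GRCm38.p6, H19 and Igf2 lie close together on chromosome 7, at chr7:142575530-142578146 and chr7:142650768-142666816, 72.6 kb apart. Plagl1 lies at chr10:13090832-13131694, Grb10 at chr11:11930499-12037428 and Igf2r at chr17:12682406-12769706. The only probe set of H19 carries the symbols Mir675 and H19. The microRNA gene Mir675, at chr7:142577064-142577147, lies inside H19, so this probe set is called H19/Mir675 below. The mature microRNAs are shown because the host transcript is their precursor, with the seed (bases 2 to 8) in capitals; the array did not measure them separately.
mmu-miR-675-5p: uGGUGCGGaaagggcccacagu
mmu-miR-675-3p: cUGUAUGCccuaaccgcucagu

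Polycomb complexes are known to gather at promoters rich in CG dinucleotides. The RefSeq promoter table of the same build held 8 promoters of 4 of the genes: 4 of Igf2, 2 of Grb10, 1 of Igf2r and 1 of Plagl1. Over the 250 bases before each start, the Igf2 promoters held 1, 10, 22 and 6 CG dinucleotides, that of Plagl1 held 19, that of Igf2r held 27, and those of Grb10 held 40 and 8. The median over all 32851 promoters was 6. The Igf2 promoters with the fewest and the most CG dinucleotides and the Plagl1 promoter are printed because these genes had the largest changes in the Eed mutant cells, with each CG in capitals. They run 5′ to 3′ on the strand of the gene, from chr7:142666817-142667066 (minus strand), chr7:142658805-142659054 (minus strand) and chr10:13090582-13090831 (plus strand).
Igf2 promoter with 1 CG: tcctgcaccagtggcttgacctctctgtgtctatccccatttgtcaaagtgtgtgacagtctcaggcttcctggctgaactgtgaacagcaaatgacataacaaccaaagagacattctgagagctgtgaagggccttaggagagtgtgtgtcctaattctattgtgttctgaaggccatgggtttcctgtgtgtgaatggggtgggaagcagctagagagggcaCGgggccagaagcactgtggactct
Igf2 promoter with 22 CG: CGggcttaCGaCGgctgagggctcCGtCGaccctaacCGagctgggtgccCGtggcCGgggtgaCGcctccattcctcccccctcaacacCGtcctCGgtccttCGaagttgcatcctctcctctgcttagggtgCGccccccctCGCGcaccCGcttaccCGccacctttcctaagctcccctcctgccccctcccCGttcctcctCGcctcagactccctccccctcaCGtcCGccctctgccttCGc
Plagl1 promoter with 19 CG: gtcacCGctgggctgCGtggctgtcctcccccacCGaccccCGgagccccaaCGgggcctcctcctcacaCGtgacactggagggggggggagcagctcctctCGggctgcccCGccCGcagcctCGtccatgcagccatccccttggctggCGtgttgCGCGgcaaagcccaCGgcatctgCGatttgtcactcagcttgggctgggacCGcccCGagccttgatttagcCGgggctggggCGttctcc

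The share of all promoters with fewer CG dinucleotides was 7.9% for the first of these, 85.2% for the second and 80.3% for the third. The letters GGGGCCCC, a core to which Plagl1 is known to bind and which reads the same on both strands, occurred in 0 of the 8 promoters and in 0.89% of all promoters. No binding or histone mark was measured, and the arrays do not tell which promoter a transcript came from.

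The signals are MAS5 intensity values on a linear scale, and the arrays had a common trimmed mean of 100 and medians from 19.07 to 28.01. Replicates of a genotype correlated at 0.963 to 0.984 in log2 values over the 13984 genes tested at their brightest probe set. These genes are not independent points, and probe sets that failed the filter are left out. The Eed probe set 1448653_at had a mean of 1428 ± 159 (SD, n = 3) in wild type, 37.8 in Eed mutant and 71.2 in double mutant cells; its other set was dim, with means from 12.7 to 18.0. The brightest Rnf2 probe set had 851 ± 124 in wild type, 468 ± 65.7 in Ring1B mutant and 383 ± 18.8 in double mutant cells, and a second bright set, 1451519_at, had 632 ± 74.6, 330.4 ± 23.1 and 275 ± 22.6. A dimmer Rnf2 set, 1448042_s_at, went the other way, with 29.9 ± 7.02, 60.2 ± 8.27 and 38.5 ± 3.80, and the means of the remaining 2 ran from 2.06 to 19.4. The labels do not place these probe sets relative to the targeted part of Rnf2, and a set outside it checks nothing. The ES cell markers Pou5f1, Nanog and Sox2 were present in all genotypes; their lowest signals on any array were 1423, 1024 and 1327.

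Igf2 was higher in both genotypes without Eed. Its brighter probe set, 1448152_at, had signals of 57.7, 179 and 74.2 on wild type replicates 1 to 3, and of 194, 289 and 160 in Ring1B mutant cells. The Eed mutant arrays had 694, 1474 and 1101, and the double mutant arrays 1004, 2343 and 1361. The lowest array without Eed therefore lay above the highest array with it, whereas the wild type and Ring1B mutant arrays overlapped. The mean signal was 103 ± 65.5 (SD, n = 3) in wild type, 214 ± 66.9 in Ring1B mutant, 1090 ± 390 in Eed mutant and 1570 ± 693 in double mutant cells, which is 10.5 times and 15.2 times wild type in the last 2.

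Changes were tested with limma on log2(signal + 5), and adjusted p-values (Benjamini-Hochberg) run over all 30027 kept probe sets. Igf2 rose by 3.43 ± 0.39 (log2 change ± SE) in Eed mutant cells (limma adjusted p = 7.67e-05) and by 3.93 ± 0.39 in double mutant cells (adjusted p = 9.95e-06). In Ring1B mutant cells the log2 change was 1.13 ± 0.39 and did not pass the threshold of 0.05 (limma adjusted p = 0.137). Wild type replicate 2 had the highest signal of its genotype, and without that array the change was 1.59 and passed (limma adjusted p = 0.0264). The change also passed with replicate 2 of every genotype left out or with the replicate number as a block.

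Between the mutants, Igf2 was higher in Eed mutant than in Ring1B mutant cells by 2.30 ± 0.39 (limma adjusted p = 0.0076), a call lost without Ring1B mutant replicate 3 (2.11, adjusted p = 0.0501). It was higher in double mutant than in Ring1B mutant cells by 2.80 ± 0.39 (limma adjusted p = 0.000548). Between double mutant and Eed mutant cells the log2 difference was 0.50 (limma adjusted p = 0.574), with an unadjusted 95% interval from -0.34 to 1.34, which spans no change as well as a rise of over 1 log2 unit. The second Igf2 probe set, 1415931_at, was dim, with means of 6.80 ± 3.48, 5.01 ± 3.42, 22.0 ± 9.65 and 32.7 ± 3.26 from wild type to double mutant. It lay above the 40th percentile of the array, the level of the filter, on 0 wild type and 0 Ring1B mutant arrays, 2 Eed mutant arrays and 3 double mutant arrays. It thus passed the filter only through the genotypes where it is high, and its values are given with no test and as no support for the brighter set.

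H19/Mir675 had its high level in the double mutant cells. The signals of its probe set 1448194_a_at were 31.3, 82.2 and 70.3 on wild type replicates 1 to 3 and 81.1, 199 and 73.9 in Ring1B mutant cells. They were 92.2, 235 and 130 in Eed mutant cells and 369, 738 and 480 in double mutant cells. All 3 double mutant arrays lay above all other arrays. The Ring1B mutant arrays overlapped both the wild type and the Eed mutant arrays, while the Eed mutant arrays lay above wild type with a gap from 82.2 to 92.2. The means were 61.3 ± 26.6, 118 ± 70.0, 152 ± 73.8 and 529 ± 189 (SD, n = 3), and the last was 8.64 times wild type.

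H19/Mir675 rose by 3.05 ± 0.42 in double mutant cells against wild type (limma adjusted p = 0.00015) and by 2.20 ± 0.42 against Ring1B mutant cells (limma adjusted p = 0.00401). Its log2 change was 1.24 ± 0.42 in Eed mutant cells (limma adjusted p = 0.0754) and 0.85 ± 0.42 in Ring1B mutant cells (limma adjusted p = 0.333), and neither passed the threshold. The difference between double mutant and Eed mutant cells was 1.81 ± 0.42, with an unadjusted 95% interval from 0.91 to 2.71, and just missed the threshold (limma adjusted p = 0.052). Over 22 alternative settings this adjusted p ran from 8.41e-05 to 0.199 and passed in 8, among them the fits without wild type replicate 1, Ring1B mutant replicate 2 or Eed mutant replicate 2 (0.0343, 0.0295 and 0.0417). The Eed mutant change against wild type passed without Ring1B mutant replicate 2 (adjusted p = 0.0385) or Eed mutant replicate 1 (adjusted p = 0.0479). With the replicate number as a block, the changes in Ring1B mutant and in Eed mutant cells both passed. The labels do not say that a number marks a shared batch.

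The order of the 4 genotypes by mean was the same for Igf2 and H19/Mir675: wild type, Ring1B mutant, Eed mutant, double mutant. The steps between neighbours differed. For Igf2 the step from Ring1B mutant to Eed mutant passed the test, while for H19/Mir675 that step was 0.39 ± 0.42 (limma adjusted p = 0.744). Whether the difference of steps between the genes is larger than the spread was not tested.

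**Figure D1:**
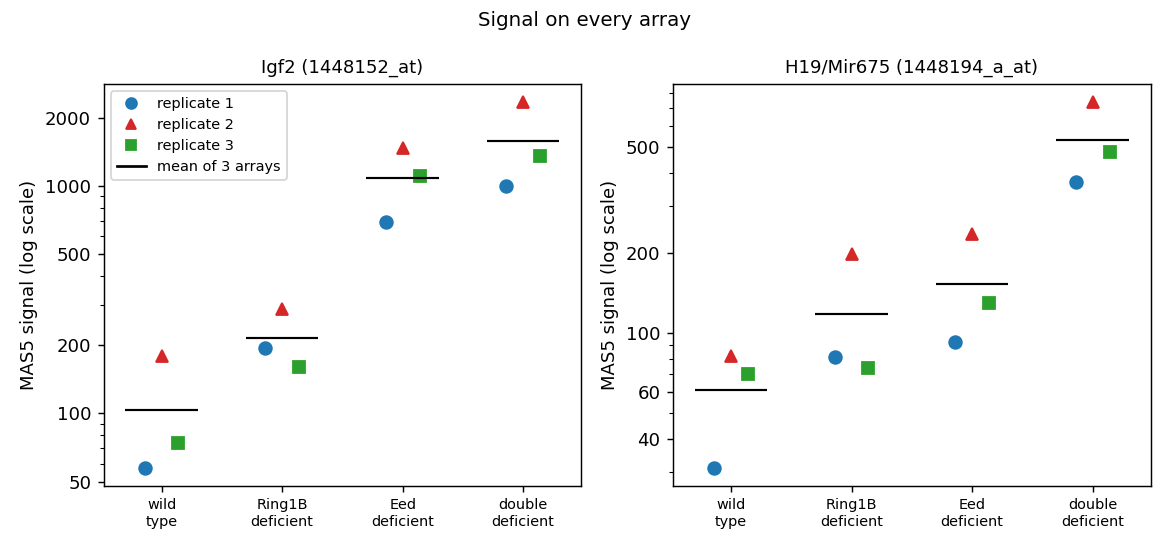
Signal of Igf2 (probe set 1448152_at) and H19/Mir675 (1448194_a_at) on every array, on log axes in MAS5 signal units. Symbols and colours mark the replicate number and the black line the mean of 3 arrays. Igf2 lies from 694 to 2343 in the 6 arrays without Eed and from 57.7 to 289 in the others, and H19/Mir675 lies from 369 to 738 in double mutant cells and from 31.3 to 235 elsewhere.

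Array by array, Igf2 and H19/Mir675 also shared a pattern within genotypes. Replicate 2 had the highest signal of the 3 arrays in all 4 genotypes for both genes. For Igf2 its log2 signal lay above the genotype mean by 0.92 in wild type, 0.47 in Ring1B mutant, 0.50 in Eed mutant and 0.67 in double mutant cells. For H19/Mir675 these deviations were 0.49, 0.87, 0.71 and 0.53. Among all 30027 kept probe sets, 9.47% had replicate 2 highest in every genotype, so the pattern is not rare on these arrays. Replicate 1 lay below the genotype mean in all 4 genotypes for both genes, by -0.63, -0.10, -0.58 and -0.55 for Igf2 and by -0.77, -0.37, -0.59 and -0.45 for H19/Mir675. The share of all kept probe sets with this replicate 1 pattern was not counted.

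The brightest probe sets of Plagl1, Igf2r and Grb10 did not have replicate 2 highest throughout. Grb10 had it highest in double mutant cells and replicate 1 highest in the other 3 genotypes. Plagl1 and Igf2r had it highest in Eed mutant and double mutant cells, and replicate 1 highest in the others. The labels name no culture batch or hybridisation batch, and what the replicate numbers share was not tested. With replicate 2 of every genotype left out, Igf2 changed by 3.64 in Eed mutant and 4.06 in double mutant cells, and H19/Mir675 by 3.03 in double mutant cells, all called by limma.

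**Figure D2:**
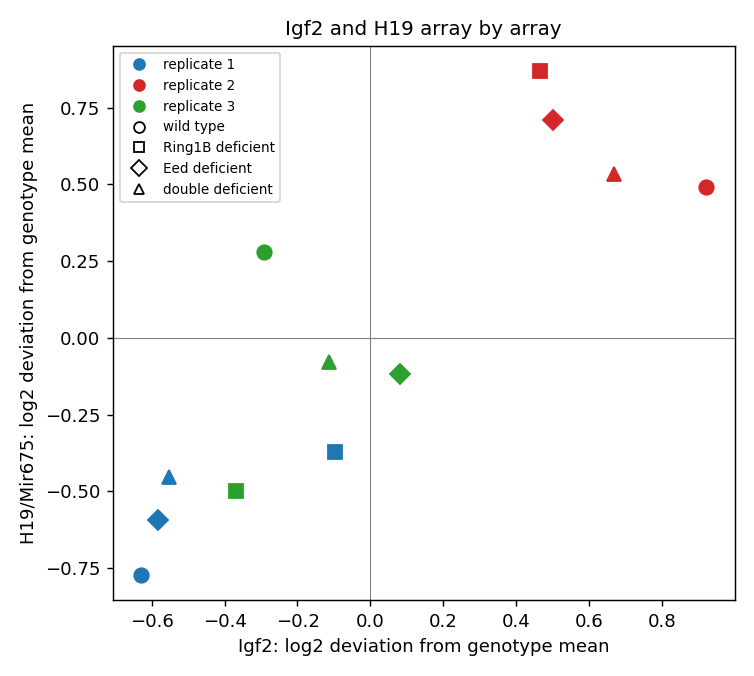
Deviation of each array from the mean of its genotype, in log2 units, for Igf2 (x axis) and H19/Mir675 (y axis); colour marks the replicate number and shape the genotype. The 4 replicate 2 arrays lie at 0.47 to 0.92 for Igf2 and 0.49 to 0.87 for H19/Mir675, and the 4 replicate 1 arrays lie below 0 on both axes.

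Markers of other cell types moved with these genes. In bulk RNA, more cells of a type and more RNA per cell cannot be told apart. Of 25 tested markers of primitive, parietal and visceral endoderm, a lineage known for high Igf2 and H19, 18 were higher in Ring1B mutant, 20 in Eed mutant and 22 in double mutant cells, and 0 were lower by limma (0, 0 and 1 at an unadjusted p under 0.05). Among all 13984 genes tested at their brightest probe set, 4.68%, 10.8% and 19.5% were higher. Of the endoderm markers called higher, 3, 4 and 4 had no wild type array above the filter level, so their calls are no support. These were Foxa2, Sox7 and Ttr in Ring1B mutant cells, and the same genes and Afp in the other mutants. The summed signal of the 25 endoderm markers ranged over the arrays from 2454 to 3002 in wild type and 7410 to 10211 in Ring1B mutant cells. It ranged from 10533 to 15342 in Eed mutant and 15124 to 18145 in double mutant cells. In these sums, to which bright genes add most, replicate 2 was highest in every genotype. By the median log2 deviation of the markers from the wild type mean, replicate 2 was lowest in double mutant cells. It had 2.71 there, against 2.80 and 2.78 for replicates 1 and 3, and was highest in the other genotypes. The defining markers Ttr and Afp passed the filter only through mutant arrays, so their values are a description with no test. They were near 0 in wild type, at 0.538 ± 0.113 and 2.25 ± 0.266. In Ring1B, Eed and double mutant cells Ttr had 209 ± 177, 512 ± 583 and 214 ± 94.3. Afp had 82.3 ± 103, 275 ± 375 and 40.7 ± 9.41. Both thus varied widely between arrays of the single mutants, and their means were lower in double mutant than in Eed mutant cells. Sox17 went from 14.1 ± 3.46 in wild type to 194 ± 33.2, 358 ± 32.6 and 758 ± 87.4 in the mutants.

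Of 12 tested trophoblast markers, 5, 10 and 10 were higher in the Ring1B, Eed and double mutant cells, against the same 4.68%, 10.8% and 19.5% of all genes. Their sums ran from 829 to 1643, 1712 to 3394, 4205 to 6924 and 5423 to 8854 from wild type to double mutant. Replicate 2 again had the highest sum in every genotype. By the median log2 deviation, replicate 3 was highest in double mutant cells, at 1.91 against 1.75 for replicate 2. In Eed mutant cells replicates 2 and 3 were level, both at 1.54. Of 26 tested feeder cell and fibroblast markers, 3, 12 and 22 were higher, again against 4.68%, 10.8% and 19.5%, and their sums ran from 5119 to 5326, 5006 to 6211, 8522 to 15907 and 16056 to 18557. Their median log2 change was -0.20, 0.92 and 1.67 in the 3 mutants. Pdgfra and Sparc are in both this list and the endoderm list, so the lists are not independent. Eed mutant replicate 3 alone gave the 15907, against 8522 and 9748 on the other Eed mutant arrays. Without that array Igf2 changed by 3.39 in Eed mutant cells (limma adjusted p = 0.000676) and Plagl1 by 2.27 (limma adjusted p = 3.44e-05). The other Eed mutant arrays also had sums above all wild type arrays, so leaving out 1 array does not test the part of such cells.

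Mesoderm and muscle markers had sums from 180 to 326 in wild type and from 432 to 484 in double mutant cells, with 3, 3 and 5 of 11 tested markers higher, against 4.68%, 10.8% and 19.5% of all genes. Of those called higher, 1 in each mutant, Hand2, had no wild type array above the filter level, so its calls are no support. Eomes is in both this list and the trophoblast list. The sum of 12 ES cell markers ranged from 21829 to 22860 in wild type and from 15289 to 17489 in double mutant cells, where 8 were lower, against 11.4% of all genes. In Eed mutant cells it ranged from 17776 to 21260, also below wild type, with 2 markers lower and 1 higher. In Ring1B mutant cells it ranged from 20615 to 22737, with 1 lower and 1 higher. Among all genes 4.56% were lower in Eed mutant and 2.5% in Ring1B mutant cells. Ring1B mutant cells had endoderm sums over 7410 with Igf2 at 160 to 289, and Eed mutant cells sums over 10533 with Igf2 at 694 to 1474. The part of other cell types in the changes of the 5 genes was not tested.

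Plagl1 changed in every mutant. Its brightest probe set, 1426208_x_at, had signals of 94.9, 89.0 and 91.0 on wild type arrays and 219, 141 and 149 on Ring1B mutant arrays. Eed mutant arrays had 385, 554 and 527, and double mutant arrays 685, 714 and 665. The 4 genotypes did not overlap on any array. The means were 91.6 ± 3.04, 170 ± 43.3, 489 ± 90.7 and 688 ± 25.0 (SD, n = 3).

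Against wild type, Plagl1 rose by 0.83 ± 0.18 in Ring1B mutant (limma adjusted p = 0.0164), by 2.34 ± 0.18 in Eed mutant (adjusted p = 2.89e-06) and by 2.84 ± 0.18 in double mutant cells (adjusted p = 1.79e-07). The Ring1B mutant call was lost without wild type replicate 3 (0.82, limma adjusted p = 0.0524), without Ring1B mutant replicate 1 (0.63, limma adjusted p = 0.0615), or with only those 2 genotypes in the fit (limma adjusted p = 0.0647). Plagl1 was higher in Eed mutant than in Ring1B mutant cells by 1.51 ± 0.18 (limma adjusted p = 0.00108) and in double mutant than in Ring1B mutant cells by 2.02 ± 0.18 (limma adjusted p = 2.46e-05). The double mutant to Eed mutant difference of 0.51 did not pass the adjusted test (limma adjusted p = 0.185), although the arrays did not overlap and the unadjusted 95% interval ran from 0.12 to 0.89.

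By Affymetrix naming, a probe set ending in _x_at can hold probes that match other transcripts, so this signal may not be Plagl1 alone. The second kept set, 1450533_a_at, was dim, with means of 5.02 ± 2.62, 4.75 ± 4.02, 18.0 ± 7.69 and 22.6 ± 4.22. It too passed the filter only through arrays without Eed, 2 in each of those genotypes, so its values are a description with no test. The third set, 1438588_at, failed the filter with means from 2.35 to 11.4. The tested changes of Plagl1 thus rest on the _x_at probe set.

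Igf2r was higher in both genotypes without Eed. Its brighter probe set, 1424112_at, had signals of 143, 121 and 135 in wild type, 245, 182 and 142 in Ring1B mutant, 248, 251 and 222 in Eed mutant, and 288, 415 and 321 in double mutant cells. Wild type and Ring1B mutant arrays overlapped by 1 array each, and the double mutant arrays lay above all others. The means were 133 ± 11.4, 190 ± 51.7, 240 ± 15.5 and 341 ± 65.6 (SD, n = 3). Igf2r rose by 0.83 ± 0.19 in Eed mutant (limma adjusted p = 0.0127) and by 1.31 ± 0.19 in double mutant cells (limma adjusted p = 0.000242). Its Ring1B mutant change of 0.46 ± 0.19 did not pass (limma adjusted p = 0.224).

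Igf2r was 0.85 ± 0.19 higher in double mutant than in Ring1B mutant cells (limma adjusted p = 0.0101), a call lost without Ring1B mutant replicate 3 (0.66, adjusted p = 0.0502) or under median centring (0.60, adjusted p = 0.063). With replicate 2 of every genotype left out, neither this difference (0.69, limma adjusted p = 0.0785) nor the Eed mutant change against wild type (0.73, limma adjusted p = 0.0733) passed. The other kept probe set, 1424111_at, had means of 125 ± 4.36, 152 ± 22.5, 172 ± 3.16 and 247 ± 9.77. It rose by 0.96 ± 0.14 in double mutant cells (limma adjusted p = 0.000256), and its Eed mutant change of 0.45 ± 0.14 missed the threshold (limma adjusted p = 0.0563). Both kept probe sets thus called Igf2r in double mutant cells, and the brighter one also in Eed mutant cells. The third, 1440979_at, carries the symbols Airn and Igf2r and failed the filter with means from 5.44 to 9.04.

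Airn is a noncoding RNA expressed from the paternal copy that starts inside Igf2r, runs in the opposite direction and silences Igf2r on that copy. In the annotation, 28.4 kb of Airn lie over Igf2r. Its own probe set had a mean signal of 11.6 ± 1.69 in wild type, 16.0 ± 1.69 in Ring1B mutant, 32.8 ± 12.5 in Eed mutant and 34.9 ± 8.92 in double mutant cells. It lay above the filter level on 0 wild type arrays and on 3 arrays of each mutant. Airn thus passed the filter only through mutant arrays, and its values are given with no test. The mean signals of Igf2r and its antisense partner were both higher in Eed mutant and double mutant cells than in wild type. The calls of Airn counted among the neighbours below are therefore no support. That in Eed mutant cells was also lost without wild type replicate 2, Eed mutant replicate 2 or Eed mutant replicate 3, or with replicate 2 of every genotype left out.

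Grb10 changed little. Its brightest probe set, 1425458_a_at, had signals of 907, 804 and 744 in wild type, 791, 753 and 621 in Ring1B mutant, 1043, 932 and 846 in Eed mutant, and 1039, 1248 and 1055 in double mutant cells. Only the double mutant arrays stood clear of wild type, and they overlapped the Eed mutant arrays. The means were 819 ± 82.3, 721 ± 89.2, 940 ± 98.9 and 1114 ± 116 (SD, n = 3).

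Grb10 rose by 0.44 ± 0.14 in double mutant cells against wild type (limma adjusted p = 0.0292). The call was lost under median centring (0.19, limma adjusted p = 0.421), without an intensity trend (0.44, adjusted p = 0.0623), or without wild type replicate 2 or 3 (0.43 and 0.38) or double mutant replicate 2 or 3 (0.36 and 0.48). Against Ring1B mutant cells the rise was 0.63 ± 0.14 (limma adjusted p = 0.0082), and under median centring it was 0.38 (limma adjusted p = 0.136). The changes in Ring1B mutant cells, -0.18 (limma adjusted p = 0.558), and in Eed mutant cells, 0.20 (limma adjusted p = 0.407), did not pass.

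The dimmer Grb10 sets had means of 35.0, 31.2, 44.8 and 54.7 (1430164_a_at) and of 30.0, 28.0, 31.8 and 43.5 (1425457_a_at) from wild type to double mutant. Neither passed in double mutant cells against wild type, with log2 changes of 0.59 (limma adjusted p = 0.111) and 0.48 (limma adjusted p = 0.0548). The second passed against Ring1B mutant cells at 0.56 (limma adjusted p = 0.0401). The median of all tested genes moved by 0.10 in double mutant cells against wild type and by -0.15 after median centring.

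**Figure D3:**
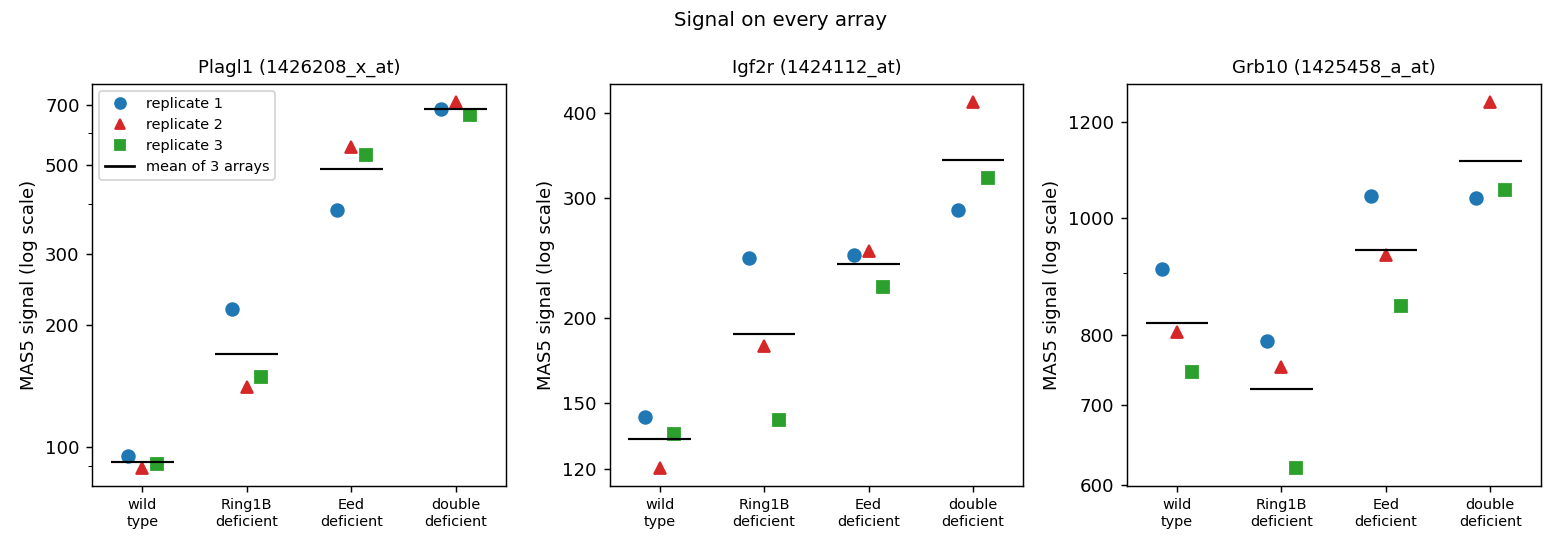
Signal of the brightest probe sets of Plagl1, Igf2r and Grb10 on every array, on log axes in MAS5 signal units, with the replicate numbers as symbols and the mean of 3 arrays as a black line. Plagl1 goes from 91.6 to 688 in mean signal without overlap between genotypes, Igf2r from 133 to 341, and Grb10 from 819 in wild type to 1114 in double mutant cells with 721 in Ring1B mutant cells.

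Counted over the brightest probe set of each gene, 1 of the 5 genes (Plagl1) was higher in Ring1B mutant cells, where 2.91% of all kept probe sets were higher. In Eed mutant cells 3 of 5 (Igf2, Igf2r and Plagl1) were higher, against 7.49% of probe sets. In double mutant cells all 5 were higher than wild type, against 15.2% of probe sets, and all 5 were higher than in Ring1B mutant cells, against 9.48%. Under median centring, 3 of 5 were higher than in Ring1B mutant cells and 4 of 5 than in wild type. The count against wild type was also 4 without an intensity trend or with replicate 2 of every genotype left out. It was 4 as well without wild type replicate 2 or 3, or without double mutant replicate 2 or 3. In Eed mutant against Ring1B mutant cells 2 of 5 (Igf2 and Plagl1) were higher, against 2.15% of probe sets, and 0 of the 5 were lower by limma in any of these comparisons, also at an unadjusted p under 0.05. When all genes are counted at their brightest probe set instead, in the fit over genes, the shares in the order of these comparisons are 4.68%, 10.8%, 19.5%, 12.7% and 3.37%.

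Between double mutant cells and their parent genotype, Eed mutant, 0 of 5 genes passed limma's adjusted test, where 1.28% of probe sets did in either direction; at an unadjusted p under 0.05, 3 were higher. All 5 log2 differences were above 0: 0.50 for Igf2, 1.81 for H19/Mir675, 0.48 for Igf2r, 0.51 for Plagl1 and 0.24 for Grb10. The interaction compares the change from Eed mutant to double mutant with that from wild type to Ring1B mutant, both of which go with the loss of Ring1B. It was called by limma for 0 of 5 genes, where 1.05% of probe sets were called, and for 1 (Grb10) at an unadjusted p under 0.05. Its values were -0.63 for Igf2 (limma adjusted p = 0.647), 0.96 for H19/Mir675 (adjusted p = 0.486), 0.02 for Igf2r (adjusted p = 0.981), -0.32 for Plagl1 (adjusted p = 0.601) and 0.43 for Grb10 (adjusted p = 0.33). The unadjusted 95% intervals were wide, from -1.83 to 0.56 for Igf2 and from -0.31 to 2.23 for H19/Mir675.

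**Figure D4:**
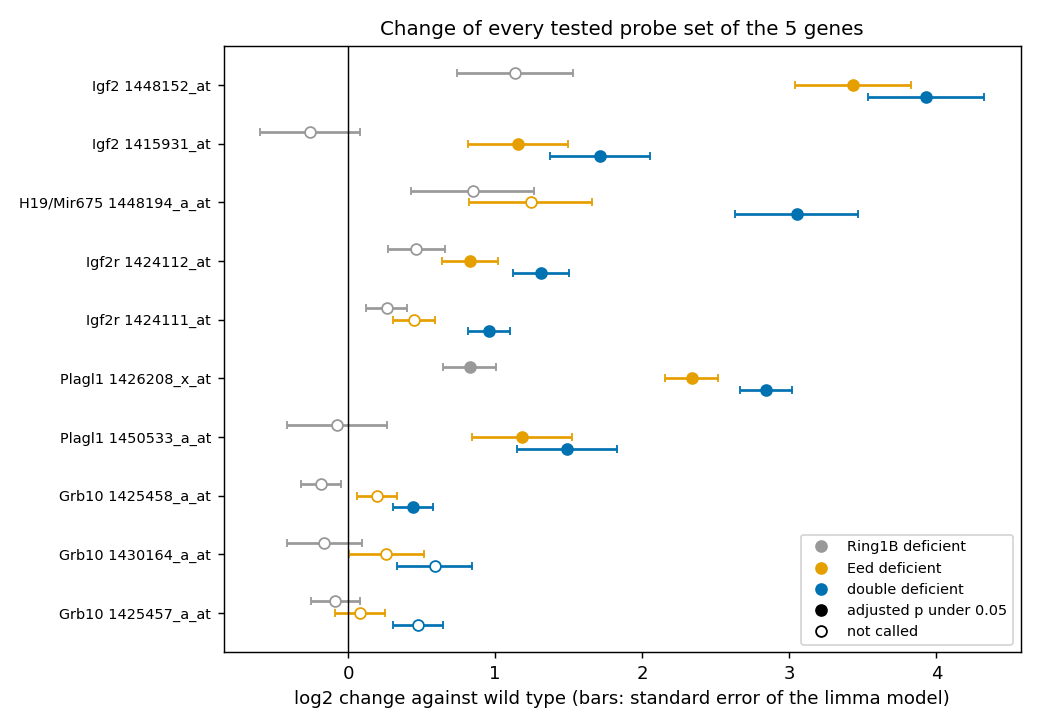
log2 change against wild type of the 10 kept probe sets of the 5 genes in the 3 mutants, with bars of 1 standard error of the limma model. Filled points have an adjusted p under 0.05. The largest changes are those of Igf2 (3.43 and 3.93), H19/Mir675 (3.05 in double mutant cells) and Plagl1 (2.34 and 2.84), and the Grb10 points lie between -0.18 and 0.59. The dim second sets of Igf2 and Plagl1 passed the filter only through arrays without Eed, so their filled points are no test.

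The other genes of the IGF pathway were read from a list of ligands, receptors and signalling proteins, 23 of 27 of which were tested at the brightest probe set. In Ring1B mutant cells 1 was higher and 0 lower by limma (2 and 1 at an unadjusted p under 0.05), where 4.68% of all genes tested were higher and 2.5% lower. In Eed mutant cells 3 were higher and 1 lower, against 10.8% and 4.56% of all genes. In double mutant cells 9 were higher and 1 lower, against 19.5% and 11.4%. The list's median log2 change was 0.04, 0.34 and 0.51 in the 3 mutants, against -0.01, 0.03 and 0.10 over all genes. Without wild type replicate 2, 5 were higher in Eed mutant cells.

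The ligand Igf1 had a mean signal of 19.9 ± 6.38 in wild type, 21.1 ± 6.47 in Ring1B mutant, 27.8 ± 6.73 in Eed mutant and 59.4 ± 12.2 in double mutant cells, and rose in the last by 1.39 ± 0.26 (limma adjusted p = 0.00133). Ins2, the insulin gene next to Igf2, changed by 0.92 ± 0.34 in double mutant cells and missed the threshold (limma adjusted p = 0.0573). Ins2 lay above the filter level on 0 wild type arrays, so this change is a description only. The receptors that carry the IGF2 signal were not called in double mutant cells: Igf1r changed by 0.68 ± 0.26 (limma adjusted p = 0.0584) and Insr by 0.34 ± 0.23 (limma adjusted p = 0.28).

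Among the proteins behind the receptors, the docking protein gene Irs4 had means of 16.6 ± 2.74, 48.6 ± 18.6, 85.9 ± 31.1 and 97.9 ± 47.7 from wild type to double mutant and rose by 1.27, 2.03 and 2.16 in the 3 mutants (limma adjusted p = 0.0329, 0.00105 and 0.000305). The first of these calls was lost without wild type replicate 1 or 3, Ring1B mutant replicate 1 or 2, or double mutant replicate 3, and 2 genes of the list were higher there without Ring1B mutant replicate 3. Grb14, an adaptor related to Grb10, rose by 1.10 in Eed mutant and 1.26 in double mutant cells (limma adjusted p = 0.00254 and 0.000452). The kinase gene Akt1 rose by 0.71 and 1.17 in Eed and double mutant cells (limma adjusted p = 0.0068 and 8.66e-05). The docking protein gene Gab1 went the other way, from 842 ± 242 in wild type to 483 ± 35.4 and 276 ± 88.9 (log2 changes -0.76 and -1.60, limma adjusted p = 0.0319 and 0.000124). Its Eed mutant call was lost without wild type replicate 1 or 3 or any 1 of the Eed mutant arrays.

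Of 16 listed IGF binding proteins, the proteases that cut them and proteins that bind IGF messenger RNA, 12 were tested. In Ring1B mutant cells 1 was higher, in Eed mutant cells 3 were higher and 1 lower, and in double mutant cells 5 were higher and 2 lower. Among all genes 4.68%, 10.8% and 19.5% were higher and 2.5%, 4.56% and 11.4% lower, so the counts of lower genes lie near their shares. The median changes were -0.22, 0.29 and 0.13. Igfbp4, which encodes a binding protein, went from 137 ± 20.8 in wild type to 448 ± 101 in Eed mutant and 600.1 ± 123 in double mutant cells (log2 changes 1.66 and 2.09, limma adjusted p = 0.000515 and 3.48e-05). Htra1, the gene of a secreted protease, rose in all 3 mutants by 1.52, 1.66 and 2.07 (limma adjusted p = 0.00333, 0.00097 and 7.72e-05).

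Igfbp7 and Pappa, the gene of a protease that cuts IGFBP4, rose in double mutant cells by 1.91 and 1.62 (limma adjusted p = 0.00288 and 0.00767). On Eed mutant arrays their SDs were nearly as large as their means, 359 ± 301 and 39.8 ± 37.0, and their changes did not pass there. Igfbp2, the binding protein gene with the brightest signal in the list, fell by 0.72 in Eed mutant and 1.00 in double mutant cells, from 2997 ± 208 to 1825 ± 263 and 1497 ± 164 (limma adjusted p = 0.00531 and 0.000245). Igf2bp1, which encodes a protein that binds Igf2 and H19 RNA, changed by -0.83 in double mutant cells (limma adjusted p = 0.0395). The count of 2 lower genes was 1 after quantile normalization, with no filter, with no intensity trend, and in the fits without wild type replicate 1 or 3, Eed mutant replicate 3 or any 1 of the double mutant arrays, and the 1 lower gene in Eed mutant cells became 2 without wild type replicate 2 or 3 or Eed mutant replicate 1. Igf2bp3 changed by 0.12 in double mutant cells (limma adjusted p = 0.648), and Igf2bp2 was not tested.

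**Figure D5:**
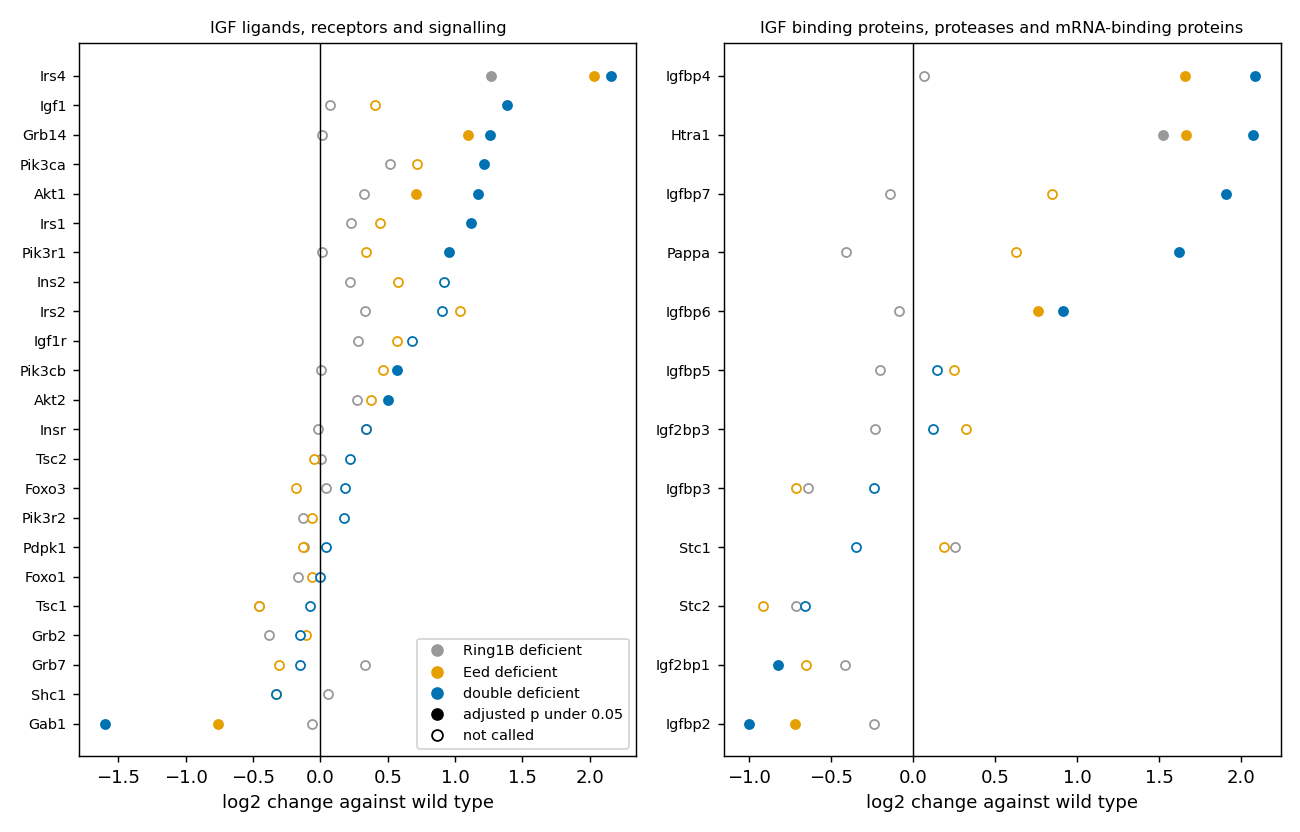
log2 change against wild type of the 23 tested ligand, receptor and signalling genes (left) and the 12 tested genes of binding proteins, proteases and mRNA-binding proteins (right) in the 3 mutants, with filled points at an adjusted p under 0.05. In double mutant cells 9 genes are higher and 1 lower on the left, and 5 are higher and 2 lower on the right.

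Genes next to the imprinted genes were read to see whether neighbours moved too. Of the 11 tested neighbours of Igf2 and H19, 0 were called by limma in Ring1B mutant (1 at an unadjusted p under 0.05), 1 was higher in Eed mutant and 3 were higher in double mutant cells. With 10.8% and 19.5% of all genes higher, these counts lie near the background. Tnnt3, a muscle troponin gene, was dim, with means of 1.19 ± 0.602, 2.81 ± 1.85, 17.8 ± 6.45 and 17.6 ± 3.47. It is the 1 gene counted in Eed mutant cells and 1 of the 3 in double mutant cells, and it passed the filter only through arrays without Eed, 2 and 1 of them, so its calls are no support. Lsp1 rose in double mutant cells by 0.79 (limma adjusted p = 0.033). Th, the tyrosine hydroxylase gene, is another of the 3, with means of 8.86 ± 1.39 in wild type and 18.7 ± 4.39 in double mutant cells. Th lay above the filter level on 0 wild type, 3 Ring1B mutant, 1 Eed mutant and 2 double mutant arrays, so its call is no support either. The count of 3 fell to 1 without double mutant replicate 1 or 3 and under quantile normalization, median centring, a stricter filter or with only the groups compared, and was 5 without Ring1B mutant replicate 2; the count of 1 in Eed mutant cells was 0 without Eed mutant replicate 2 or 3 or double mutant replicate 2.

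Of 7 tested neighbours of Igf2r, 1 (Airn) was higher and 1 lower in Eed mutant cells, and 1 (Airn) was higher and 3 lower in double mutant cells. The shares of all genes were 10.8% and 19.5% higher and 4.56% and 11.4% lower, and the counts of higher genes lie near them. Airn had no wild type array above the filter level, so its calls are no support. Sod2, the mitochondrial superoxide dismutase gene, fell by 0.75 and 0.91 (limma adjusted p = 0.000587 and 4.98e-05), and Pnldc1 by 0.80 in double mutant cells (limma adjusted p = 0.0197). The count of 3 was 5 under median centring and 1 without wild type replicate 3 or double mutant replicate 2, and that of 1 lower gene in Eed mutant cells was 2 without double mutant replicate 2. Slc22a3, another imprinted gene of this cluster, was not tested.

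Of 9 tested neighbours of Plagl1, Utrn, which encodes the dystrophin relative utrophin, was lower in all 3 mutants, from 483 ± 153 in wild type to 197 ± 31.3, 224 ± 49.1 and 221 ± 7.40 (log2 changes -1.24, -1.07 and -1.07, limma adjusted p = 0.00262, 0.00394 and 0.00185). Fuca2, a fucosidase gene, rose in double mutant cells by 1.23 (limma adjusted p = 0.00667). In all, 0, 1 and 2 of these neighbours were higher and 1, 1 and 2 lower in the 3 mutants. Among all genes 4.68%, 10.8% and 19.5% were higher and 2.5%, 4.56% and 11.4% lower, and the counts of higher neighbours lie near those shares. Over 23 alternatives the double mutant counts ran from 1 to 3 higher and from 1 to 2 lower. The higher count there was 1 without wild type replicate 1 or double mutant replicate 2 or 3, and the lower count was 1 without any 1 of the wild type or double mutant arrays. In Eed mutant cells the higher count was 0 without wild type replicate 1 or any 1 of the Eed mutant arrays, and the lower count was 2 without Ring1B mutant replicate 2 or Eed mutant replicate 2. In Ring1B mutant cells the lower count was 2 without wild type replicate 1.

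Of 6 tested neighbours of Grb10, 0 were called in Ring1B mutant or Eed mutant cells by limma (1 and 2 lower at an unadjusted p under 0.05), and 1 was lower in double mutant cells: Fignl1, a DNA repair gene, by -0.83 (limma adjusted p = 0.00108). In Eed mutant cells 1 was lower without wild type replicate 1 or Eed mutant replicate 2, and in double mutant cells 1 was higher without wild type replicate 1. The Plagl1 relatives Plag1 and Plagl2 were not called in any mutant against wild type by limma (1 was lower at an unadjusted p under 0.05, in Eed mutant cells); there Plag1 changed by -0.69 (limma adjusted p = 0.069), and 1 of them was called lower without Eed mutant replicate 3. Plagl2 changed by 0.48 in double mutant cells (limma adjusted p = 0.171).

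Of 47 other imprinted genes, 36 were tested. In Ring1B mutant cells 3 were higher and 7 lower, in Eed mutant cells 5 were higher and 8 lower, and in double mutant cells 10 were higher and 10 lower. Each lower count holds 1 gene with no array of that mutant above the filter level, so its call is no support. This gene was Nap1l5 in Ring1B mutant cells and Nnat in Eed mutant and double mutant cells. The shares of all genes were 4.68%, 10.8% and 19.5% higher and 2.5%, 4.56% and 11.4% lower. The median changes were -0.07, -0.02 and 0.25. Under median centring 5 were higher in double mutant cells.

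Meg3 and Rian, noncoding RNAs of the maternal copy of the Dlk1 cluster, were lower in all 3 mutants. Meg3 had 944 ± 298 in wild type and 43.8 ± 6.68, 107 ± 119 and 132 ± 13.3 in the mutants (log2 changes -4.24, -3.58 and -2.75, limma adjusted p = 0.000167, 0.000365 and 0.00111), and Rian changed by -3.58, -3.01 and -2.24 (limma adjusted p = 1.57e-06, 4.95e-06 and 2.56e-05). Gatm, an enzyme gene of creatine synthesis, rose by 1.28, 1.24 and 2.49 (limma adjusted p = 0.00966, 0.00609 and 1.41e-05). Mest, a paternally expressed gene, was at 485 ± 108 in wild type and 326 ± 49.6 in Eed mutant cells, and at 27.8 ± 7.02 and 31.7 ± 7.61 in the genotypes without Ring1B (log2 changes -3.90 and -3.73, limma adjusted p = 1.58e-07 and 1.01e-07). Outside the naming rule, and chosen after its values were seen, Cdkn1c, the gene of a growth-restraining cyclin-dependent kinase inhibitor on the chromosome of Igf2, rose by 1.15 in Ring1B mutant cells (limma adjusted p = 0.0018), by 0.60 in Eed mutant cells (limma adjusted p = 0.0423) and changed by 0.32 in double mutant cells (limma adjusted p = 0.202).

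Of 28 listed genes that maintain imprints or DNA methylation, 26 were tested; 1, 3 and 5 were lower in the 3 mutants and 0 higher by limma (at an unadjusted p under 0.05, 4, 6 and 9 lower and 1, 0 and 0 higher). Among all genes 2.5%, 4.56% and 11.4% were lower, so the 1 call in Ring1B mutant cells lies near its share. The median changes were -0.18, -0.20 and -0.35. Dnmt1, the maintenance methyltransferase gene, fell by 0.63 in double mutant cells (limma adjusted p = 0.0121), from 490.3 ± 61.1 to 316 ± 38.4, and Uhrf1, which guides it to DNA, fell by 0.56 (limma adjusted p = 0.0199). Zfp57, the gene of a zinc finger protein that protects imprints, changed by -0.09 (limma adjusted p = 0.783), its partner Trim28 by -0.63 (limma adjusted p = 0.056), and Ctcf, whose product insulates Igf2 from the shared enhancers on the maternal copy, by -0.39 (limma adjusted p = 0.161). The count of 5 was 11 under median centring, 9 with replicate 2 of every genotype left out, 8 with only the groups compared and 3 with no intensity trend. It also depended on single arrays: it was 2 without double mutant replicate 2 or 3, 3 without wild type replicate 3, and 8 without Ring1B mutant replicate 2 or Eed mutant replicate 2; 1 gene was higher there without wild type replicate 1. In Eed mutant cells the count of 3 was 0 with replicate 2 of every genotype left out, 1 with no intensity trend, and 1 without wild type replicate 3 or Eed mutant replicate 2. The single call in Ring1B mutant cells, Tet1, which encodes an enzyme that oxidises methylated cytosine, had an adjusted p of 0.0472 in the limma fit, and the count there was 0 without wild type replicate 2 or 3, Ring1B mutant replicate 3, Eed mutant replicate 3 or any 1 of the double mutant arrays, and 2 without Eed mutant replicate 2. It was also 0 after quantile normalization, with no filter, with no intensity trend or with every kept probe set tested, and 3 with replicate 2 of every genotype left out.

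The genes most like Igf2 over the 12 arrays, by Pearson correlation of log2 values, were Asah2 (r = 0.9895), Tinagl1 (0.9851), Plat (0.9828), Clu (0.982) and Krt8 (0.982). Plat, the tissue plasminogen activator gene, is one of the endoderm markers above, with means of 24.5, 41.6, 138 and 158 from wild type to double mutant. The keratin gene Krt8, one of the trophoblast markers above, had 213, 605, 1705 and 2273. Those most like H19/Mir675 were Eps8l2 (r = 0.9535), Flvcr2 (0.9521), Spns3 (0.951), the histocompatibility gene H2-K1 (0.9476) and Hebp2 (0.9452). H2-K1 had means of 392, 519, 756 and 1128. The 12 arrays share 4 genotypes and 3 replicate numbers, so these correlations describe both the genotype steps and the replicate pattern, and the lists for Igf2 and H19/Mir675 had no gene in common.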

How the data were processed

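RNA was extracted with Trizol and labelled, hybridised and first analysed by a commercial provider, per the labels. The deposited table holds intensity values on a linear scale, and the submitters' processing notes name MAS5 as the tool. The MAS5 version, scan dates and passage numbers are not given in those sources. Each array had a trimmed mean of 100 (2% left off at each end), so the arrays were already scaled, which can shift the split of higher and lower calls; the ratio of the highest to the lowest median, 1.47, was under the limit of 1.5 for further scaling. The number of arrays limits the precision.

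Of 45101 probe sets, 64 controls were left out; 34945 of the rest had 1 symbol in the platform annotation, 932 several and 9160 were not in it. Probe sets above an array's 40th percentile on 3 or more of the 12 arrays were kept. The value 5, close to the 20th percentile of an array, was added before taking log2. A mean per genotype was fitted over all 12 arrays with limma 3.58.1 in R 4.3.3 (empirical Bayes, intensity trend). Probe sets of the 5 genes were adjusted over 30027 kept probe sets, listed genes over 13984 genes at their brightest probe set with 1 symbol, both by Benjamini-Hochberg, and called at an adjusted p under 0.05. The fit was tested on simulated data. Every probe set of the 5 genes is named; each list gives counts, a median and up to 4 called genes by size of change, with 14 genes fixed by name. The genes, lists and rules were chosen with earlier results of these data known. Alternatives were other added values, filters, scalings, the intensity trend, the replicate number as a block, only the groups compared, arrays left out, and, for the lists, every kept probe set tested. Both fits were planned. The fit over probe sets was taken as the main one for the 5 genes after seeing that the H19 probe set carries 2 symbols, which keeps it out of the fit over genes; the other 4 genes in the fit over genes are an alternative added then.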

Additional observations from a re-analysis of the deposited data

How the results depend on the processing

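Each of the 35 log2 changes of the 5 genes was recomputed under up to 23 alternatives. The calls of Igf2 and Plagl1 in Eed mutant against wild type, and of Igf2, Plagl1 and H19/Mir675 in double mutant against wild type and against Ring1B mutant cells, held in all of them. In the fit over genes at their brightest probe set, added after seeing the data, no call of Igf2, Igf2r, Plagl1 or Grb10 changed; H19/Mir675 is not in that fit. The limits are the 3 arrays per genotype, the single line per genotype, and dim probe sets, where the added value shrinks a change.

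Results near the threshold moved. The H19/Mir675 difference between double mutant and Eed mutant cells passed with an added value of 32 (1.628, limma adjusted p = 0.0249), after quantile normalization (1.851, adjusted p = 0.0445), with only the 2 groups compared (1.808, adjusted p = 0.039) and with replicate 2 of every genotype left out (1.896, adjusted p = 0.028), which makes 1 of 5 genes called there in place of 0. With single arrays left out it ran from 1.512 to 2.163, and the count from 0 to 1. With replicate 2 of every genotype left out, Igf2 in Ring1B mutant cells (1.361) and H19/Mir675 in Eed mutant cells (1.132) passed too. With single arrays left out these ran from 0.8196 to 1.594 and from 0.8546 to 1.537. The number of the 5 genes called in Ring1B mutant cells, 1, was 0 with only the groups compared, 2 without replicate 2 of every genotype, and 0 to 2 with single arrays left out; in Eed mutant against Ring1B mutant cells it was 1 to 2. In double mutant against Ring1B mutant cells it was 3 under median centring. In double mutant cells against wild type it was 4 in place of 5 under median centring, and 4 to 5 with single arrays left out. The interaction of Igf2r, 0.02, turned sign under median centring (-0.1488), with replicate 2 of every genotype left out (-0.04085) and with single arrays left out (-0.1655 to 0.2167). The cause was not tested.

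The labels do not say that a replicate number marks a shared batch. Deviations of arrays with the same number correlated at 0.164 to 0.431 for number 1, 0.265 to 0.614 for number 2 and -0.0478 to 0.179 for number 3 (medians 0.34, 0.43 and 0.0674), against -0.485 to 0.194 (median -0.188) for arrays of different numbers. Deviations cancel out within a genotype, so positive values for the same number force negative ones for different numbers, which are no independent baseline. In the mean, 9 of 12 arrays correlated best with their own number, a hint from the data that numbers 1 and 2 go together. Since not every pair of number 3 was over 0.1, the numbers were not taken to pair the arrays. With the replicate block, Igf2 (1.134) and H19/Mir675 (0.8462) passed in Ring1B mutant cells (3 of 5 genes called), H19/Mir675 passed in Eed mutant cells (1.241) and in double mutant against Eed mutant cells (1.808, 1 of 5 called), and 1 of 5 interactions, that of H19/Mir675, was called; Grb10 passed in Eed mutant against Ring1B mutant cells (0.38, 3 of 5 called). Imprint maintenance genes called lower went from 1, 3 and 5 to 6, 9 and 13 in the 3 mutants. Called probe sets went from 1350 to 3192 in Ring1B mutant, 3238 to 5999 in Eed mutant, 383 to 1950 in double mutant against Eed mutant, 4109 to 7153 in double mutant against Ring1B mutant, 853 to 2481 in Eed mutant against Ring1B mutant, and 314 to 1688 in the interaction.

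Single arrays moved these counts too: without the array with the greatest effect they were 808, 1961, 45, 1967, 247 and 136 in the same order (Ring1B mutant replicate 3 for 808 and 247, Eed mutant replicate 3 for 1961, and double mutant replicate 3 for 45, 1967 and 136). With only the groups compared the counts were 703 in Ring1B mutant, 1941 in Eed mutant and 349 in Eed mutant against Ring1B mutant cells. In double mutant against Eed mutant cells the count was 602 with an added value of 32, 605 under median centring and 167 with replicate 2 of every genotype left out, which also gave 465 for Eed mutant against Ring1B mutant and 175 for the interaction. Scaling moved the split of higher and lower calls: in double mutant against wild type, 4559 higher and 2614 lower became 3586 and 3656 after quantile normalization and 2787 and 5974 under median centring. Under median centring, Eed mutant against wild type went from 2248 and 990 to 1745 and 1330, double mutant against Ring1B mutant from 2848 and 1261 to 1559 and 3727 (2010 and 1802 after quantile normalization), double mutant against Eed mutant from 215 and 168 to 138 and 467 (202 and 281 after quantile normalization), and the interaction from 122 and 192 to 93 and 333.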
